A study of Homo sapiens with 4 samples.

Results

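The respiratory chain genes are the genes of the protein complexes that carry electrons from fuel to oxygen and make ATP in mitochondria. Protein-coding genes of GENCODE release 29 were taken where the symbol marked a subunit family: NDUF (A, B, C, S and V) for complex I, SDH (A to D) for complex II, UQCR for complex III, COX4 to COX8 for complex IV, ATP5 for complex V, and the mitochondrial MT-ND, MT-CO, MT-CYB and MT-ATP genes. This rule used symbols alone and no measured value, and found 112 genes of the 58735 in each count file, 99 on nuclear chromosomes and 13 in the mitochondrial genome. RNA was sequenced from A549 cells, a human lung adenocarcinoma line, in 2 groups of 2 libraries. The shRALY cells were infected with a lentivirus whose hairpin is directed at RALY, which binds RNA and belongs to the hnRNP proteins. The shControl cells were infected with a control hairpin lentivirus. All 4 libraries carry the label day 2 and are labelled wild type in genotype, with no further stated allele or agent. One hairpin label is given per group, and the labels do not say whether libraries of a group came from separate cultures, so a p-value here reflects only how far libraries of a group differ, and that spread may be technical.

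Oxidative phosphorylation joins products of both genomes. Complex I oxidises NADH, complex II oxidises succinate, complex III passes electrons from ubiquinol to cytochrome c, complex IV reduces oxygen, and complex V uses the proton gradient built by complexes I, III and IV to make ATP. Mitochondrial DNA encodes core membrane subunits of complexes I, III, IV and V, and none of complex II. The other subunits are transcribed in the nucleus, translated in the cytosol and imported. Many nuclear subunit genes carry promoter sites for the factors NRF1, GABPA and YY1. Mitochondrial transcripts are made as long polycistronic RNAs that are cut at the intervening tRNAs, and most receive short poly(A) tails. The libraries were made from RNA held on poly-T beads.

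Counts summed to 18632787 and 16823605 in the shRALY libraries, against 17587717 and 16745818 in the shControl libraries. Log2 counts-per-million values (CPM, normalised read counts with TMM-scaled library sizes) correlated across genes at 0.989 within shRALY and 0.988 within shControl, and genes are not independent replicates. RALY itself had 751 and 679 counts in shRALY, against 2208 and 2272 in shControl, which matches the labels (log2 fold change -1.64, SE 0.11; edgeR quasi-likelihood F-test with Benjamini-Hochberg adjustment, adjusted p = 5.85e-11). Of 9 epithelial markers 6 passed the low count filter and 3 were higher in shRALY, with summed levels of 9291 and 9396 CPM in shRALY, against 8163 and 8890 CPM in shControl. KRT19, a simple epithelial keratin, averaged 311 ± 17.4 CPM in shRALY and 95.4 ± 7.39 CPM in shControl (SD, n = 2 each; 3.27-fold; edgeR adjusted p = 1.35e-11), a call that held with each library left out. KRT7, another such keratin, averaged 3547 ± 50.8 CPM in shRALY and 2986 ± 166 CPM in shControl. Its call was lost without either shRALY library and without shControl replicate 1. CDH1, the other higher marker, averaged 32.1 ± 3.87 CPM in shRALY and 23.2 ± 5.16 CPM in shControl (log2 0.47). The CDH1 call was lost without shRALY replicate 2 and without shControl replicate 1. KRT8, the most abundant of the listed markers, averaged 3846 CPM in shRALY and 3723 CPM in shControl (log2 0.05). KRT18 lay the other way, at 1605 CPM in shRALY and 1696 CPM in shControl (log2 -0.08). Neither KRT8 nor KRT18 was called. The adhesion marker EPCAM stood low, at 3.24 ± 0.425 CPM in shRALY and 2.68 ± 0.552 CPM in shControl, and the alveolar surfactant genes SFTPB and SFTPC were below 0.3 CPM in every library. Immune cell markers summed to 11.5 and 8.25 CPM in shRALY and 11.1 and 11.7 CPM in shControl, with none of the 2 tested called. Most of these sums came from the 2 tested markers, CD14 and ITGAM. CD14 averaged 6.57 ± 2.02 CPM in shRALY and 7.32 ± 1.11 CPM in shControl, above EPCAM in both groups. ITGAM averaged 2.97 CPM in shRALY and 3.74 CPM in shControl. CD3E and LYZ had 0 counts in every library. Fibroblast and endothelial markers summed to 16.3 and 19.5 CPM in shRALY and 22.6 and 21.6 CPM in shControl, with none of the 4 tested called. The part of these differences in the results below was not tested.

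Respiratory chain genes were more often higher than lower in shRALY, by small amounts. Of the 112 genes, 104 passed the low count filter; 35 of them were higher in shRALY, 2 were lower and 67 were not called at an edgeR adjusted p of 0.05. Over all 15912 tested genes, 20.6% were called higher and 20.4% lower. Among the tested respiratory chain genes the shares were 33.7% higher and 1.92% lower. Their median log2 fold change was 0.18, beside -0.01 over all tested genes. Folds of the higher genes ran between 1.21 and 1.72, so none reached a doubling. Both shRALY libraries stood above both shControl libraries in 53 of the tested respiratory chain genes and below them in 11, beside 34.2% and 35.4% of all tested genes. Tested against a 1.2-fold change with edgeR's glmTreat, 14.6% of all tested genes were higher and 13.7% lower. Of the 104 genes of the chain 15 were higher, a share near that of all tested genes, and 0 were lower. At an unadjusted glmTreat p under 0.05, 1 was lower, and DESeq2, which tests any change, called 34 higher and 2 lower. In bulk RNA, fewer cells of a type and less RNA per cell cannot be told apart.

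**Figure D1:**
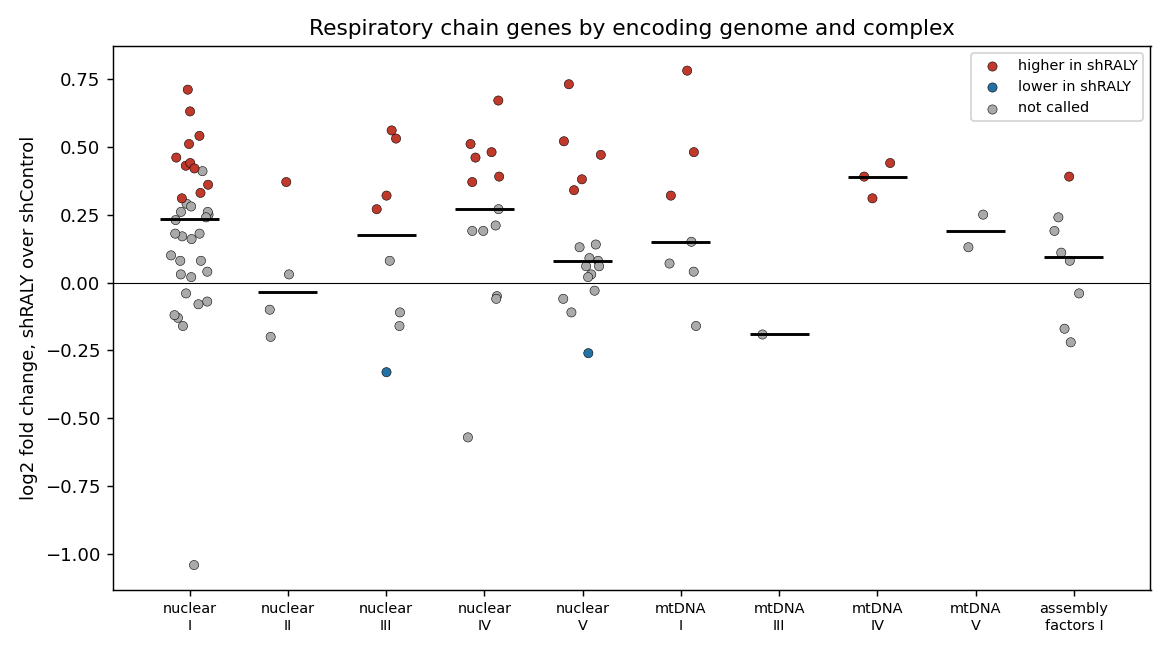
Log2 fold change (shRALY over shControl) of each tested subunit gene and of the NDUFAF assembly factors, split by encoding genome and complex, with a line at each group's median. Red points were called higher in shRALY, blue points lower and grey points not called; complex IV of the mitochondrial genome is the group in which all 3 genes were called higher.

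The 35 higher calls rested on small spreads. Only 7 held in every fit that left out 1 library: MT-ND3, MT-ND6, MT-CO1, NDUFB2, UQCR10, COX4I1 and COX7A2. Fewer genes of the chain were called higher without either shRALY library, and higher calls over all genes fell in the same fits. In both of these fits, higher calls fell by a larger part in the chain than over all genes. The larger share of higher genes in the chain thus rests on having both shRALY libraries. It was not tested further in these fits. Without shControl replicate 1 no call was lost, and without shControl replicate 2 only ATP5ME lost its call. In these fits a single shRALY or shControl library is assumed to vary like the pair in the other group, and no called gene changed direction.

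The mitochondrial encoded genes made up a large and slightly larger share of the shRALY libraries. They held 7.17% of counts in shRALY replicate 1 (exact 95% binomial interval 7.156 to 7.179) and 6.99% in replicate 2 (6.980 to 7.004), against 6.27% (6.260 to 6.283) and 5.81% (5.799 to 5.821) in shControl replicates 1 and 2. The means were 7.08% ± 0.124 in shRALY and 6.04% ± 0.326 in shControl (SD, n = 2 each), and both shRALY libraries were above both shControl libraries. Intervals and floors cover counting error only, because PCR copies were not marked and reads are not independent molecules. The 99 nuclear genes together held 0.698% and 0.667% of counts in shRALY, against 0.668% and 0.642% in shControl, and these ranges do overlap. Each nuclear count was thus matched by 10.3 and 10.5 mitochondrial counts in shRALY, against 9.38 and 9.05 in shControl. No p is given for a sum over these genes. The mitochondrial rRNA genes MT-RNR1 and MT-RNR2, which encode the mitochondrial ribosome's RNAs, held 1.67% and 1.62% of counts in shRALY and 1.37% and 1.16% in shControl.

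Within the mitochondrial genome, 6 of 13 genes were higher in shRALY, 0 were lower and 7 were not called in the edgeR fit. The share higher was 46.2%, beside 20.6% of all tested genes. At an unadjusted edgeR p under 0.05, 1 of the 13 was lower, and DESeq2 called 0 lower. With library size alone as scaling, or with the replicate number as a block, 1 was called lower. MT-ND3, a small core subunit of complex I at chrM:10059-10404, had the highest log2 fold change of the tested respiratory chain genes, with 612 and 769 CPM in shRALY and 418 and 386 CPM in shControl. Both shRALY values lay above both shControl values (1.72-fold, log2 0.78, SE 0.11; edgeR adjusted p = 5.58e-06). MT-ND6, the only protein gene on the opposite strand (chrM:14149-14673), had 881 and 830 CPM in shRALY and 664 and 560 CPM in shControl (log2 0.48, SE 0.10; edgeR adjusted p = 6.41e-04). MT-ND6 mRNA is generally described as lacking a poly(A) tail, and whether reads were counted by strand is not given in the sources used here, so its counts cannot be separated from RNA of the other strand. MT-ND4 had 8850 and 8870 CPM in shRALY and 7356 and 6882 CPM in shControl (log2 0.32, SE 0.08; edgeR adjusted p = 0.00471), a call lost without either shRALY library.

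All 3 mitochondrial subunits of complex IV, which form its catalytic core, were higher in shRALY. MT-CO1, which binds the site of oxygen reduction and lies at chrM:5904-7445, had 25381 and 25543 CPM in shRALY, against 19343 and 18217 CPM in shControl (log2 0.44, SE 0.08; edgeR adjusted p = 1.21e-04). It alone took 2.50% and 2.48% of counts in shRALY and 1.97% and 1.85% in shControl. MT-CO2, which accepts electrons from cytochrome c, had 7838 and 7648 CPM in shRALY and 6255 and 5593 CPM in shControl (log2 0.39, SE 0.09; edgeR adjusted p = 0.00117). MT-CO3 had 11283 and 10190 CPM in shRALY and 9113 and 8170 CPM in shControl (log2 0.31, SE 0.09; edgeR adjusted p = 0.00705). The groups did not overlap for any of the 3, and the calls of MT-CO2 and MT-CO3 were lost without shRALY replicate 1. The MT-CO1, MT-CO2 and MT-CO3 transcripts share 49.5%, 29% and 30.6% of their 50-base words with transcripts of other genes, so the division of reads is uncertain. Annotated nuclear copies of mitochondrial genes held 9082 and 9549 counts in shRALY, against 8844 and 8140 counts in shControl.

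The other 7 mitochondrial genes were not called. MT-ND2 had 2926 and 2877 CPM in shRALY and 3407 and 3054 CPM in shControl (log2 -0.16, SE 0.09). MT-CYB, the cytochrome b of complex III, had 2692 and 2727 CPM in shRALY and 3151 and 3038 CPM in shControl (log2 -0.19, SE 0.09; edgeR adjusted p = 0.0897). In both genes the shRALY values lay below the shControl values, opposite to the other mitochondrial genes whose groups did not overlap. MT-ATP6, the proton channel subunit of complex V, had 5929 and 5859 CPM in shRALY and 5602 and 5141 CPM in shControl (log2 0.13, SE 0.09). MT-ND1, MT-ND4L, MT-ND5 and MT-ATP8 had log2 fold changes of 0.04, 0.15, 0.07 and 0.25, with overlapping groups. The mitochondrial rRNA MT-RNR2 averaged 15745 ± 192 CPM in shRALY and 11510 ± 1368 CPM in shControl (log2 0.45, SE 0.09; edgeR adjusted p = 2.88e-04), and MT-RNR1 was not called (log2 0.23, SE 0.10; edgeR adjusted p = 0.0753).

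**Figure D2:**
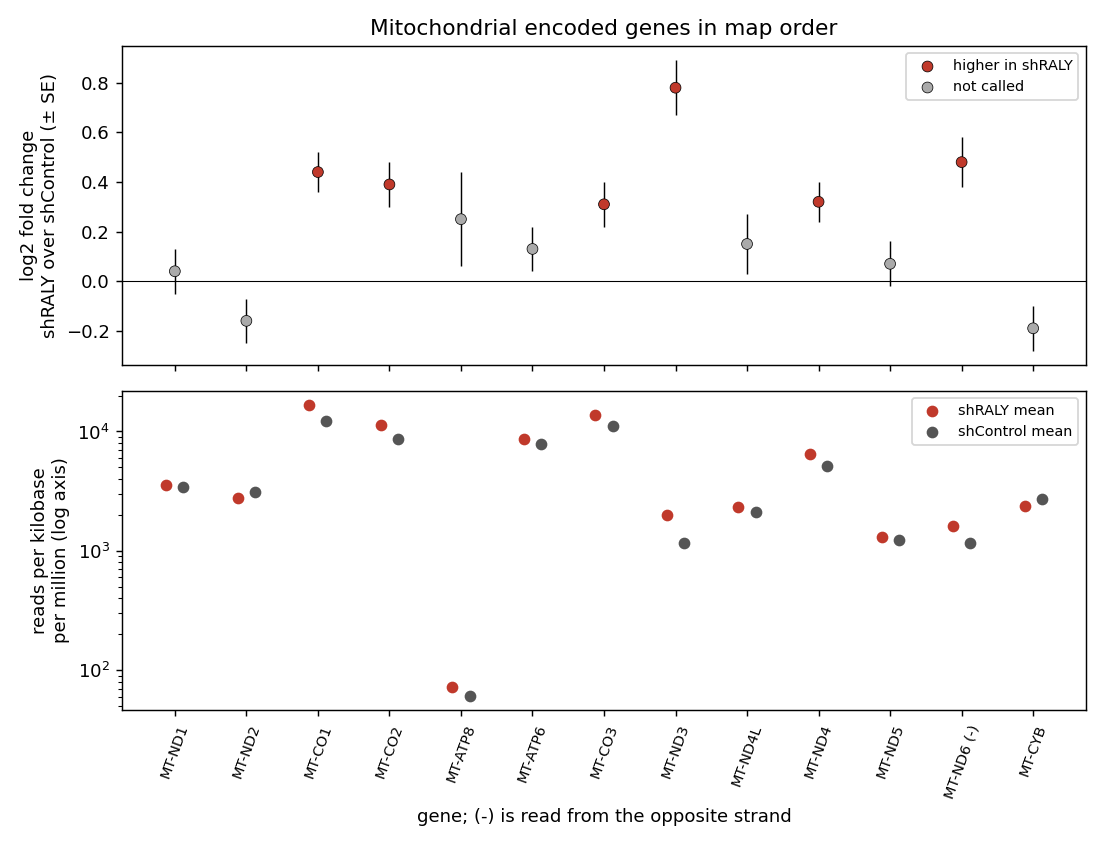
The 13 mitochondrial encoded genes in the order of the mitochondrial map, with the log2 fold change and its SE above and the mean level per length in each group below (reads per kilobase of exon scaled like CPM, log axis). MT-ND3 has the highest fold change at 0.78, MT-CO1 the highest level, and MT-ATP8 the lowest level.

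Neighbouring genes on the map had unequal fold changes. Between MT-CO3 (log2 0.31) and MT-ND4L (0.15), all on the same strand, lies MT-ND3 (0.78), and MT-ND4 (0.32) lies beside MT-ND5 (0.07). These are differences between genes, and the spread between genes was not tested. Levels per length, as reads per kilobase of exon scaled like CPM (RPKM), also differed along the map. MT-CO1 averaged 16512 RPKM in shRALY and 12179 RPKM in shControl, and MT-CO3 13694 RPKM in shRALY and 11023 RPKM in shControl. Next came MT-CO2, at 11321 RPKM in shRALY and 8661 RPKM in shControl, and MT-ATP6, at 8655 RPKM in shRALY and 7888 RPKM in shControl. MT-ND5 was at 1298 RPKM in shRALY and 1239 RPKM in shControl, and MT-ATP8 was far lower than its neighbour, at 73.0 RPKM in shRALY and 61.4 RPKM in shControl. MT-ATP8 and MT-ATP6 are read from the same mRNA and overlap for 46 bases, 22.2% of MT-ATP8, at chrM:8527-8572 (GRCh38, plus strand). How reads that fall in more than 1 gene were counted is not given in the sources used here, so the MT-ATP8 count cannot be read as its mRNA level. The shared stretch is shown because it lies in both reading frames, with the MT-ATP6 start codon and the last letters of MT-ATP8, its stop codon, in capitals:
MT-ATP8 and MT-ATP6 overlap: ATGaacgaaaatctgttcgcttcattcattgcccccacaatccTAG

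Complex I, with the most genes, had 11 of 36 tested nuclear subunits higher in shRALY, 0 lower and 25 not called. The share higher was 30.6%, beside 20.6% higher and 20.4% lower over all tested genes. The median log2 fold change was 0.24. At an unadjusted edgeR p under 0.05, 1 was lower, and DESeq2 called 0 lower. A textbook division was made after the values were seen. It puts 2 of 7 core subunits among the higher genes (28.6%, median 0.02) and 9 of 29 accessory subunits (31.0%, median 0.25). These shares lie near each other. NDUFB2, an accessory subunit of the membrane arm at chr7:140690777-140722790, had 76.6 and 78.6 CPM in shRALY and 43.8 and 51.0 CPM in shControl (log2 0.71, SE 0.12; edgeR adjusted p = 3.65e-05). NDUFA1, an accessory membrane subunit on chromosome X, had 35.6 and 42.3 CPM in shRALY and 26.8 and 23.4 CPM in shControl (log2 0.63, SE 0.14; edgeR adjusted p = 7.48e-04). NDUFB7 had 46.4 and 49.5 CPM in shRALY and 32.0 and 34.0 CPM in shControl (log2 0.54, SE 0.12; edgeR adjusted p = 0.00117). NDUFB9 had 85.8 and 80.5 CPM in shRALY and 58.0 and 58.8 CPM in shControl (log2 0.51, SE 0.11; edgeR adjusted p = 7.90e-04). The groups did not overlap for any of these accessory genes. The calls of NDUFA1 and NDUFB7 were lost without shRALY replicate 2 and that of NDUFB9 without shRALY replicate 1. Genes on the opposite strand overlap 35.1% of the exonic bases of NDUFB2 (BRAF and NDUFB2-AS1), 44.5% of NDUFA1 (RNF113A) and 21.0% of NDUFB9, so their counts are uncertain.

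The core subunits of complex I, which hold its electron path, were split. NDUFS8, which binds iron-sulfur clusters, had 168 and 158 CPM in shRALY and 120 and 124 CPM in shControl (log2 0.42, SE 0.11; edgeR adjusted p = 0.00275). NDUFV1, which binds NADH and flavin, had 128 and 127 CPM in shRALY and 101 and 102 CPM in shControl (log2 0.33, SE 0.11; edgeR adjusted p = 0.0164). Both were higher in both shRALY libraries, and the NDUFS8 call was lost without shRALY replicate 1 and the NDUFV1 call without either shRALY library. NDUFS1, NDUFS3 and NDUFS7 were not called, with log2 fold changes of -0.08, 0.03 and -0.12. NDUFV2 had the most negative value, -1.04 (SE 0.45; edgeR adjusted p = 0.0688), on only 16 and 16 counts in shRALY and 42 and 25 counts in shControl. It shares 74.0% of its 50-base words with another transcript, and NDUFB8, NDUFA13 and NDUFA7 share 55.3%, 30.5% and 73.7%, so the counts of all 4 are uncertain. The remaining higher subunits were NDUFS4, NDUFS6, NDUFB4, NDUFS5 and NDUFB11, with log2 fold changes of 0.46, 0.44, 0.43, 0.36 and 0.31; each call was lost without either shRALY library, and RBM10 overlaps 44.9% of NDUFB11 on the opposite strand. The most abundant nuclear complex I gene per length was NDUFS5, at 154 RPKM in shRALY and 121 RPKM in shControl.

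NDUFAF genes, which help to build complex I and are not part of it, had 1 of 8 higher and 0 lower, with 0 lower also at an unadjusted edgeR p under 0.05 and by DESeq2. That gene was NDUFAF8, with 51.0 and 50.6 CPM in shRALY and 37.2 and 40.6 CPM in shControl (log2 0.39, SE 0.12, edgeR adjusted p = 0.0125). Its call was lost without either shRALY library. The share of NDUFAF genes called higher was 12.5%, beside 20.6% higher and 20.4% lower over all tested genes.

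Complex II, whose 4 subunits are all nuclear and also serve the citric acid cycle, had 1 gene higher and 0 lower. The counts were the same at an unadjusted edgeR p under 0.05 and by DESeq2. The share higher, 25.0%, lies near the 20.6% of all tested genes, and 20.4% of all were lower. SDHC, a membrane anchor, had 147 and 131 CPM in shRALY and 111 and 105 CPM in shControl (log2 0.37, SE 0.11; edgeR adjusted p = 0.00955), and lost its call without either shRALY library. SDHA, the flavoprotein that oxidises succinate, had 158 and 156 CPM in shRALY and 162 and 175 CPM in shControl (log2 -0.10, SE 0.10; edgeR adjusted p = 0.458). SDHB, the iron-sulfur subunit, had 56.3 and 51.5 CPM in shRALY and 55.9 and 49.4 CPM in shControl (log2 0.03, SE 0.12). SDHD, the other anchor, had 35.8 and 31.2 CPM in shRALY and 43.3 and 33.5 CPM in shControl (log2 -0.20, SE 0.14), with 27.7% of its words shared. The groups overlapped for SDHB and SDHD. Per length, SDHB was the most abundant of the 4, at 21.9 RPKM in shRALY and 21.4 RPKM in shControl.

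Complex III had 4 of 8 tested nuclear subunits higher in shRALY and 1 lower. UQCR10, a small subunit at chr22:29767369-29770413, had 50.6 and 50.6 CPM in shRALY and 34.3 and 34.5 CPM in shControl (log2 0.56, SE 0.12; edgeR adjusted p = 6.68e-04). UQCRQ, the ubiquinol-binding small subunit, had 83.2 and 91.1 CPM in shRALY and 65.0 and 55.6 CPM in shControl (log2 0.53, SE 0.12; edgeR adjusted p = 8.79e-04). GDF9 on the opposite strand overlaps 20.8% of UQCRQ, and the UQCRQ call was lost without shRALY replicate 2. UQCRH and UQCRC1 were higher with log2 fold changes of 0.32 and 0.27, and both calls were lost without either shRALY library. UQCRFS1, the Rieske iron-sulfur protein at chr19:29205321-29213541, went the other way, with 226 and 207 CPM in shRALY and 283 and 261 CPM in shControl (log2 -0.33, SE 0.10; edgeR adjusted p = 0.0144). Its groups did not overlap, and its call was lost without either shRALY library. Among nuclear complex III genes matched by the symbol rule, UQCRFS1 was also the most abundant per length. It was at 62.3 RPKM in shRALY and 78.2 RPKM in shControl. UQCRC2, UQCR11 and UQCRB were not called. CYC1, the cytochrome c1 of complex III, is not matched by the symbol rule, and it was not called (log2 -0.05, SE 0.11; edgeR adjusted p = 0.772).

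Complex IV had 6 of 13 tested nuclear subunits higher and 0 lower, with a median log2 fold change of 0.27. The share higher was 46.2%, beside 20.6% higher and 20.4% lower over all tested genes. At an unadjusted edgeR p under 0.05 or by DESeq2, 0 were lower. COX7A2, the broadly expressed form of subunit 7A at chr6:75237675-75250323, had 54.9 and 53.5 CPM in shRALY and 34.8 and 33.3 CPM in shControl (log2 0.67, SE 0.12; edgeR adjusted p = 9.06e-05). COX4I1, the broadly expressed form of the regulatory subunit 4 at chr16:85798633-85807044, had 297 and 287 CPM in shRALY and 210 and 201 CPM in shControl (log2 0.51, SE 0.10; edgeR adjusted p = 3.39e-04). The groups stood well apart in both genes. NDUFA4, first described with complex I and now counted with complex IV, had 134 and 128 CPM in shRALY and 96.6 and 94.3 CPM in shControl (log2 0.46, SE 0.11; edgeR adjusted p = 0.00156). COX5B had 80.7 and 83.3 CPM in shRALY and 54.8 and 62.8 CPM in shControl (log2 0.48, SE 0.11; edgeR adjusted p = 0.00179). The NDUFA4 call was lost without shRALY replicate 1 and the COX5B call without shRALY replicate 2. COX7C and COX6C were higher with log2 fold changes of 0.39 and 0.37, the COX7C call being lost without shRALY replicate 2 and the COX6C call without either.

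Subunit forms of muscle, testis or hypoxia were at low levels in both groups. COX4I2, the form of subunit 4 linked to hypoxia and lung, had 0 counts in every library, as had COX6A2, COX7B2 and COX8C, so each was at most at the 3-count floor of 0.161 to 0.179 CPM. COX7A1, the heart and muscle form, had 0.598 and 0.673 CPM in shRALY and 0.670 and 1.23 CPM in shControl, and COX6B2, the testis form, had 0 and 0.795 CPM in shRALY and 0.726 and 0.0587 CPM in shControl. Neither was called. NDUFA4L2, the hypoxia form related to NDUFA4, had 1.52 and 2.20 CPM in shRALY and 1.28 and 1.12 CPM in shControl (log2 0.62, SE 0.43; edgeR adjusted p = 0.262). The broadly expressed COX6B1, COX6A1, COX8A and COX5A were not called, with log2 fold changes of 0.19, 0.21, 0.19 and -0.05. COX6B1 was the most abundant nuclear complex IV gene per length, at 204 RPKM in shRALY and 179 RPKM in shControl. COX7A2L, which joins complexes III and IV into supercomplexes, had 79.6 and 70.1 CPM in shRALY and 79.6 and 73.7 CPM in shControl, with no call.

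Complex V had 5 of 17 tested nuclear subunits higher and 1 lower. By a division made after the values were seen, 3 of 5 small membrane subunits were higher, 1 of 4 in the peripheral stalk, 1 of 5 in the F1 catalytic head and 0 of 3 in the c ring, where 0 also passed an unadjusted edgeR p under 0.05 or DESeq2. ATP5PD, of the peripheral stalk, had 92.2 and 82.9 CPM in shRALY and 65.2 and 57.2 CPM in shControl (log2 0.52, SE 0.12; edgeR adjusted p = 0.00104). ATP5MD, a small membrane subunit, had 66.9 and 66.4 CPM in shRALY and 50.2 and 46.1 CPM in shControl (log2 0.47, SE 0.11; edgeR adjusted p = 0.00230). The ATP5PD call was lost without shRALY replicate 1 and the ATP5MD call without either shRALY library. ATP5MF and ATP5F1E were higher with log2 fold changes of 0.38 and 0.34, calls lost without either shRALY library, and TUBB1 overlaps 23.2% of ATP5F1E on the opposite strand. ATP5ME had 5.28 and 8.19 CPM in shRALY and 4.24 and 3.82 CPM in shControl (log2 0.73, SE 0.25; edgeR adjusted p = 0.0245), the lowest level among the called genes, with MYL5 overlapping 61.6% of it on the opposite strand; its call was lost without shRALY replicate 2 and without shControl replicate 2.

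ATP5F1B, the catalytic beta subunit, was the most abundant nuclear gene of the chain per length and one of the few that fell. It had 715 and 689 CPM in shRALY and 841 and 840 CPM in shControl (log2 -0.26, SE 0.10; edgeR adjusted p = 0.0329), or 302 RPKM in shRALY and 362 RPKM in shControl. The groups did not overlap, and the call was lost without either shRALY library. ATP5F1A, the alpha subunit that alternates with it in the F1 head, was not called (log2 -0.06, SE 0.10). The c ring genes ATP5MC1, ATP5MC2 and ATP5MC3, which encode the same mature protein, had log2 fold changes of -0.11, 0.02 and -0.03, each with overlapping groups. ATP5IF1, the inhibitor that stops complex V running backwards, had 32.5 and 38.7 CPM in shRALY and 27.6 and 25.5 CPM in shControl (log2 0.42, SE 0.14; edgeR adjusted p = 0.0160), and its call was lost without shRALY replicate 2.

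**Figure D3:**
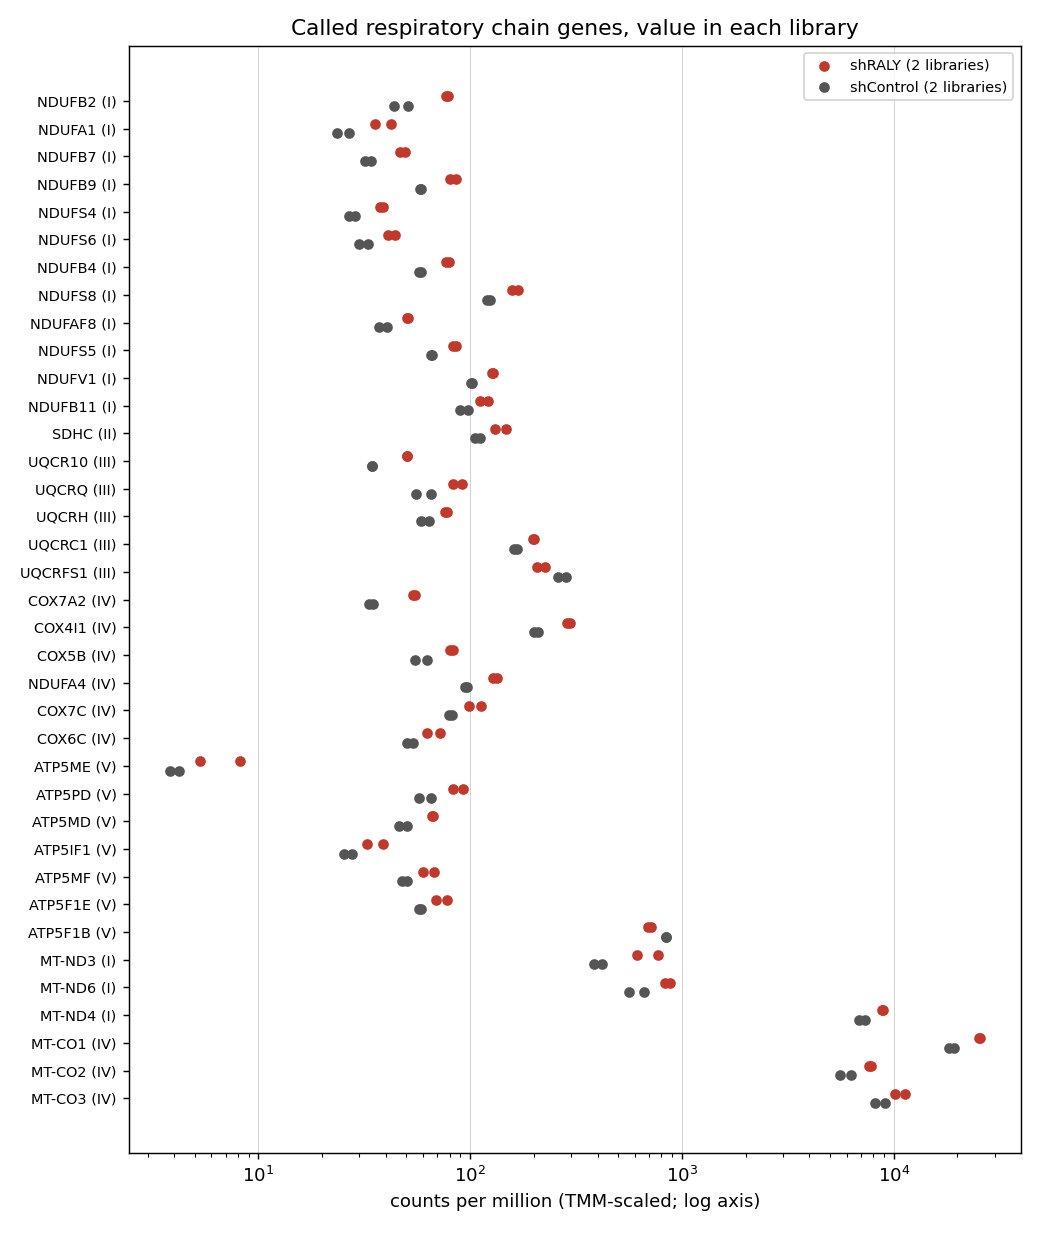
CPM (log axis) in each of the 2 shRALY libraries (red) and 2 shControl libraries (grey) for the 35 genes called higher and the 2 called lower, with the complex in brackets. In every gene shown, the red pair lies wholly to one side of the grey pair, and UQCRFS1 and ATP5F1B are the genes with the red pair to the left.

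The 8 genes that were not tested were COX4I2, COX6A2, COX7B2, COX8C, NDUFC2-KCTD14, NDUFA7, ATP5MF-PTCD1 and ATP5MGL. The first 5 of these had 0 counts in every library. NDUFA7 had 9 and 4 counts in shRALY and 18 and 9 counts in shControl, and ATP5MF-PTCD1 and ATP5MGL had 0 counts in both shRALY libraries and at most 3 in a shControl library. In all, 30 of the 112 genes shared over 20% of their words or exonic bases with another gene. Of their 26 tested members 10 were higher and 0 lower (1 lower at an unadjusted edgeR p under 0.05, 0 by DESeq2), and of the other 78 tested genes 25 were higher and 2 lower.

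Nuclear genes of the chain with short transcripts were more often called higher than those with long ones, a difference that was not tested. Among the 45 tested nuclear genes whose longest GENCODE transcript was under their median of 1585 bases, 18 were higher and 0 lower in the edgeR fit (1 lower at an unadjusted p under 0.05, 0 by DESeq2), with a median log2 fold change of 0.26. Among the 46 at or above it, 11 were higher and 2 lower, with a median of 0.07. Protein-coding nuclear genes under the same length were called higher in 25.2% and lower in 13.7% of 1127 genes (median 0.10), and longer ones higher in 22.7% and lower in 23.3% of 12012 (median -0.01). As a description, Spearman's rho between fold change and length was -0.35 across the 91 tested nuclear genes of the chain and -0.09 across 13139 protein-coding nuclear genes, which share the same 4 libraries. After each library was corrected for length and GC content, rho across the 91 was -0.30. In that fit 39 genes of the chain were higher and 5 lower, among them all 35 and both of the first calls. Calls rose over all genes too, to 3987 higher and 3900 lower, from 3274 and 3245 without the correction. Protein-coding genes of like level, between 9.78 and 143 CPM, were called higher in 24.2% and lower in 25.7%. The part of transcript length in these calls was not tested.

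**Figure D4:**
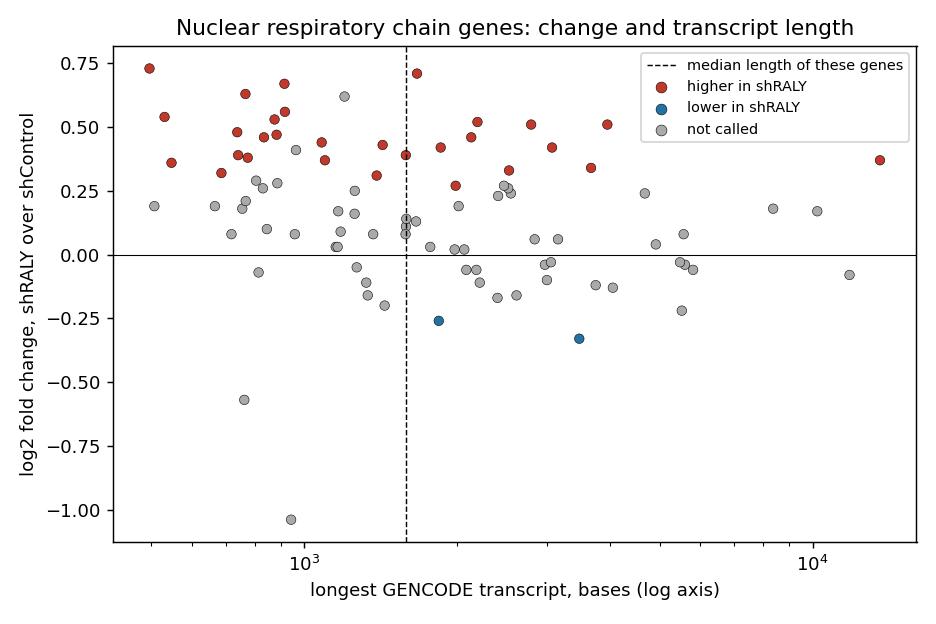
Log2 fold change of the 91 tested nuclear genes against the length of the longest GENCODE transcript (bases, log axis), with a dashed line at their median length of 1585 bases. Left of the line 18 genes were called higher (red) and none lower; right of it 11 were higher and 2 lower (blue).

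Promoter sequences are shown for 3 genes that moved, since nuclear genes of the chain are known for promoter sites of NRF1, GABPA and YY1. RefSeq promoters (GRCh38.p14, 250 bases before to 50 after a start) were matched for 79 of the 99 nuclear genes, with 98 starts. The NRF1 core CGCATGCG was found in 12.2% of those windows and in 2.02% of all 35116 windows in the table. The GABPA letters CCGGAAGT stood in 12.2%, against 4.14% of all windows, and the YY1 letters AAGATGGCG in 12.2%, against 1.75%. Both strands were searched, and none of these motifs contains another. Windows of genes called higher held the NRF1 core in 11.5%, the GABPA letters in 19.2% and the YY1 letters in 15.4%, and windows of tested genes that were not called held them in 13.6%, 10.6% and 10.6%, on 26 and 66 windows. A match is a description of letters and not a binding site. Of the sequences below, those of higher genes were picked for holding a motif, and that of the lower gene by adjusted p. They therefore show no difference between higher and lower genes. Motifs are marked only in the 250 bases before the start, not in the 50 after it. The 250 bases before the RefSeq start are given for NDUFB4 (chr3:120596086-120596335, plus strand), a higher gene with the NRF1 core, UQCRQ (chr5:132866392-132866641, plus strand), a higher gene with the GABPA letters, and UQCRFS1 (chr19:29213152-29213401, minus strand), a lower gene with none of the 3, with the motif in capitals:
NDUFB4: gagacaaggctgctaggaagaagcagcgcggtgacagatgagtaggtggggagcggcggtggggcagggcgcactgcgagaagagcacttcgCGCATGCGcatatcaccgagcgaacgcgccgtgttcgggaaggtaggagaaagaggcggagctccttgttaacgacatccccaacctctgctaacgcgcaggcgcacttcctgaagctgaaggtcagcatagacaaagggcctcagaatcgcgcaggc
UQCRQ: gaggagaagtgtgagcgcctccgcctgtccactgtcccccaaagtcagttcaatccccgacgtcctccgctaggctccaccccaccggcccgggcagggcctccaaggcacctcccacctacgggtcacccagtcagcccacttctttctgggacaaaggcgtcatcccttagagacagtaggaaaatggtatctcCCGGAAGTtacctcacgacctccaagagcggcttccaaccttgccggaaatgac
UQCRFS1: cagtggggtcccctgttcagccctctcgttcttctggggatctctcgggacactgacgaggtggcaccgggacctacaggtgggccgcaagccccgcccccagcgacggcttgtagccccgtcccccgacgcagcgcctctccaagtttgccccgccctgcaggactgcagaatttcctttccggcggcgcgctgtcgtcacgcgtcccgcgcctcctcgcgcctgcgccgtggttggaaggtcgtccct

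The regulators themselves had 2 of 10 tested genes higher and 4 lower, in a list chosen with earlier results of these data known. NRF1 averaged 11.4 ± 0.449 CPM in shRALY and 19.8 ± 2.25 CPM in shControl (SD, n = 2 each; log2 -0.80, SE 0.17; edgeR adjusted p = 4.37e-04). GABPA was at 17.7 ± 1.38 CPM in shRALY and 25.1 ± 2.51 CPM in shControl (log2 -0.51; edgeR adjusted p = 0.00907), and YY1 at 137 ± 6.30 CPM in shRALY and 168 ± 11.5 CPM in shControl (log2 -0.29; edgeR adjusted p = 0.0337). The GABPA and YY1 calls were lost without either shRALY library. MYC, a growth factor-responsive transcription factor, was higher, at 183 ± 0.339 CPM in shRALY and 125 ± 8.06 CPM in shControl (log2 0.55; edgeR adjusted p = 2.24e-04). PERM1, the other higher gene, stood low, at 2.56 CPM in shRALY and 1.11 CPM in shControl (log2 1.19, SE 0.38, edgeR adjusted p = 0.0161). PPRC1, a coactivator related to PGC-1, was lower (log2 -0.40, edgeR adjusted p = 0.00715). Both PERM1 and PPRC1 lost their calls without either shRALY library.

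Genes that copy and transcribe mitochondrial DNA had 0 of 13 tested higher and 7 lower, with a median log2 fold change of -0.44. The share lower was 53.8%, beside 20.4% of all tested genes. At an unadjusted edgeR p under 0.05, 0 were higher and 8 lower, and DESeq2 called 0 higher and 7 lower. TFAM, which packages mitochondrial DNA and starts its transcription, averaged 37.0 ± 0.735 CPM in shRALY and 84.9 ± 15.2 CPM in shControl (SD, n = 2 each; log2 -1.20, SE 0.13; edgeR adjusted p = 8.47e-08). POLG, the mitochondrial DNA polymerase, was at 52.7 ± 3.08 CPM in shRALY and 82.5 ± 6.77 CPM in shControl (log2 -0.65; edgeR adjusted p = 9.60e-05). TOP1MT, a mitochondrial topoisomerase, was at 22.0 ± 0.789 CPM in shRALY and 33.5 ± 1.23 CPM in shControl (log2 -0.60; edgeR adjusted p = 9.64e-04). These calls held with each library left out. POLRMT, the mitochondrial RNA polymerase, was lower too (log2 -0.48; edgeR adjusted p = 0.00130), and its call was lost without either shRALY library.

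Among genes that process mitochondrial RNA, 2 of 19 were higher and 4 lower. The shares were 10.5% and 21.1%, beside 20.6% and 20.4% of all tested genes, so the lower share lies near that of all genes. DESeq2 called 1 of the 19 lower. PNPT1, an RNA-degrading enzyme of mitochondria that is also induced by interferon, averaged 177 ± 3.84 CPM in shRALY and 73.8 ± 12.5 CPM in shControl (SD, n = 2 each; log2 1.26, SE 0.12; edgeR adjusted p = 1.19e-08), and its call held with each library left out. ELAC2, which cuts tRNA ends, was lower (log2 -0.39; edgeR adjusted p = 0.00466) and lost its call without either shRALY library. REXO2, an oligoribonuclease, was higher (log2 0.45; edgeR adjusted p = 0.0198) and lost its call without shRALY replicate 1 and without shControl replicate 2.

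Assembly factors were called in both directions. The complex I list, which holds the 8 NDUFAF genes, had 1 of 18 higher and 3 lower (median -0.07). The shares were 5.56% and 16.7%, beside 20.6% and 20.4% of all tested genes. DMAC2 was at 60.0 ± 3.20 CPM in shRALY and 105 ± 5.92 CPM in shControl (SD, n = 2 each; log2 -0.81; edgeR adjusted p = 3.68e-06), and ACAD9 and ECSIT fell by 0.52 and 0.49 on the log2 scale, calls lost without shRALY replicate 1. Factors for complexes II to V had 6 of 33 higher and 7 lower (median -0.11). Their shares, 18.2% and 21.2%, lie near those of all tested genes. TACO1, which aids translation of MT-CO1, was at 29.7 ± 1.58 CPM in shRALY and 57.6 ± 3.70 CPM in shControl (log2 -0.95; edgeR adjusted p = 1.33e-06). SURF1, a complex IV assembly factor, was at 34.9 ± 0.663 CPM in shRALY and 21.4 ± 2.22 CPM in shControl (log2 0.71; edgeR adjusted p = 2.37e-04). BCS1L, which places the Rieske protein UQCRFS1 in complex III, was at 16.7 ± 0.742 CPM in shRALY and 27.8 ± 1.12 CPM in shControl (log2 -0.74; edgeR adjusted p = 2.56e-04).

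Other mitochondrial lists are read against the 20.6% of all tested genes called higher and 20.4% called lower. Citric acid cycle genes had 1 of 18 higher and 9 lower, or 50% lower (median -0.21). CS, citrate synthase, was at 120 ± 5.17 CPM in shRALY and 228 ± 15.4 CPM in shControl (SD, n = 2 each; log2 -0.93; edgeR adjusted p = 2.53e-07), and DLST and OGDH, of the 2-oxoglutarate dehydrogenase complex, fell by 0.55 and 0.45 on the log2 scale, the OGDH call being lost without shRALY replicate 1. Genes for coenzyme Q and cytochrome c had 2 of 13 higher and 4 lower, or 30.8% lower (median -0.24), with COQ2 at -0.96, COQ4 at 0.54 and COQ8A at -0.53, the COQ8A call being lost without either shRALY library. Genes of mitochondrial dynamics, import and inner membrane shape had 3 of 20 higher and 6 lower, or 30% lower (median -0.20), with TIMM23 at -0.90, CHCHD3 at -0.61 and APOO at 0.69. Mitochondrial chaperones and proteases had 2 of 12 higher and 3 lower, or 25.0% lower (median -0.20), with HSPD1 at -0.65, HSPE1 at -0.80 and AFG3L2 at -0.66. The last 3 lists hold few genes, and the distance of their shares from that of all tested genes was not tested. All log2 fold changes in these lists are for shRALY over shControl from the same edgeR fit, and each gene named here passed its adjusted p of 0.05.

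**Figure D5:**
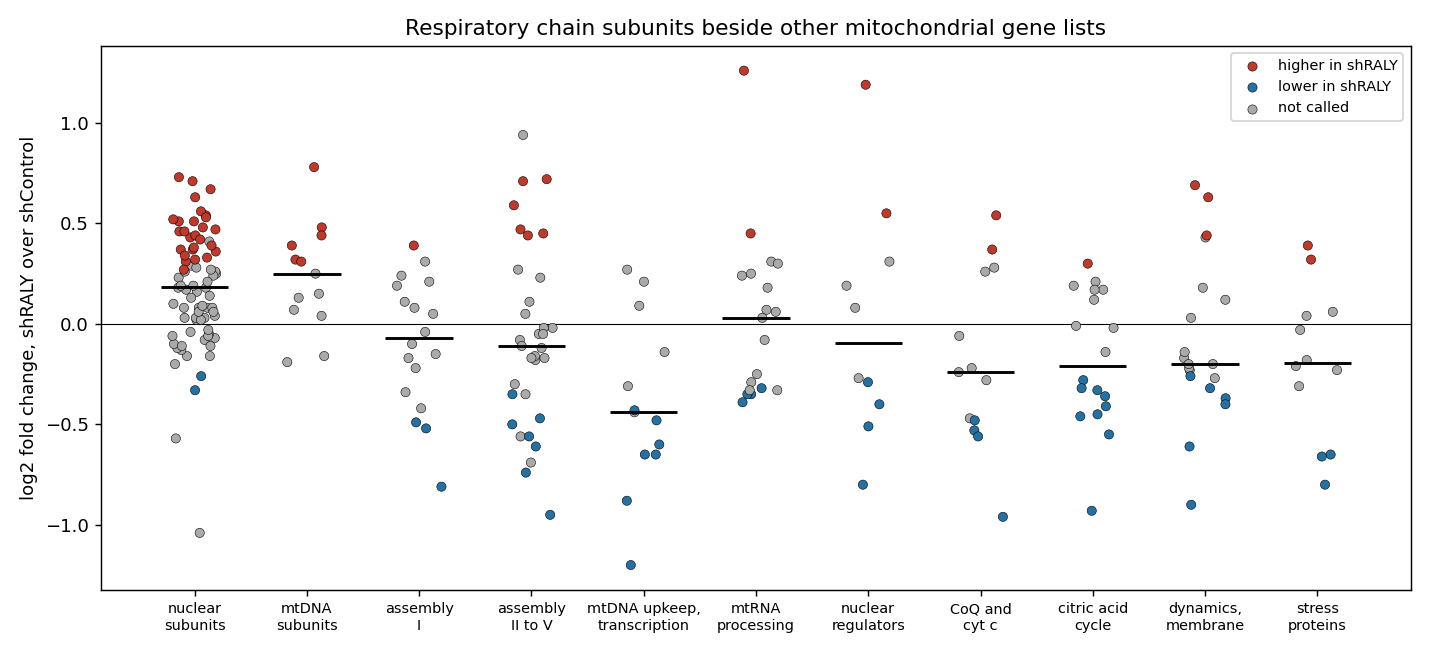
Log2 fold change (shRALY over shControl) of tested nuclear and mitochondrial encoded subunits, at the left, beside 9 other lists of mitochondrial genes, with a line at each median. Medians are 0.18 for nuclear and 0.25 for mitochondrial encoded subunits, and between -0.44 and 0.03 for the other lists; red points were called higher in shRALY, blue lower, grey not called.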

How the data were processed

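Gene expression was measured by RNA sequencing of A549 cells, in 2 shRALY and 2 shControl libraries, grouped by their titles. The authors deposited a file of raw, unscaled counts by Ensembl gene for each library. The submitters' processing notes name HISAT2 2.0.5 and featureCounts 1.5.0-p3, as well as DESeq2 1.20.0. For annotation, strand setting and multiply matching reads, nothing is given in the sources used here. All 58735 identifiers matched GENCODE 29 (GRCh38).

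Counts were tested in 1 fit over all genes with edgeR 4.0.16 in R 4.3.3: filterByExpr (minimum count 10, minimum total 15), TMM scaling and the robust quasi-likelihood F-test, shRALY against shControl, with no covariate and 2 residual degrees of freedom. Adjustment was by Benjamini-Hochberg over 15912 genes, with calls at 0.05. Totals of 16745818 to 18632787 counts put a floor of 3 counts at 0.161 to 0.179 CPM. The tests were tested on simulated data. RPKM uses the union of GENCODE exons. Genes with over 20% of 50-base words shared, or of exonic bases overlapped, are called uncertain.

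Members and lists were chosen with earlier results of these data known. Named were all mitochondrial encoded genes and up to 4 nuclear genes per complex and direction by adjusted p. Also named were the most abundant per length, every SDH gene, tissue and hypoxia isoforms, and up to 3 genes per list. The remaining called genes, MT-RNR1, MT-RNR2, CYC1 and further regulators, enzymes and cell type markers in some lists are named beside them. These were chosen after their values were seen. Alternatives were DESeq2 1.42.0, RLE factors, library size alone, a block for replicate number, leaving out each library, fits without robust estimation, without a filter or with 10 CPM required in 2 libraries, and nuclear or protein-coding genes alone. A test against a 1.2-fold change and a length and GC correction were chosen after seeing the data.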

Additional observations from a re-analysis of the deposited data

How the results depend on the processing

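Among the respiratory chain genes, 31 to 39 were called higher in every alternative that kept all 4 libraries and the whole table, other than the test against a 1.2-fold change, which called 15, and 29 were called with mitochondrial genes removed. With 1 library left out, between 13 and 43 were higher and between 0 and 6 lower. The genes called lower numbered 1 with no low count filter, 0 against a 1.2-fold change and 5 after the length and GC correction. For nuclear encoded genes, leaving out a library gave 8 to 37 higher and 0 to 4 lower; no low count filter gave 1 lower, and the 1.2-fold test gave 12 higher and 0 lower. For mitochondrial encoded genes, leaving out a library gave 3 to 7 higher and 0 to 2 lower; the 1.2-fold test gave 3 higher, library size alone gave 1 lower, and the length and GC correction gave 2 lower. Over all genes, leaving out a library gave 2040 to 3559 higher and 1897 to 3499 lower. The mitochondrial share of the shRALY libraries was 7.315% of protein-coding counts, against 6.219% in the shControl libraries. No scaling moved the median of all genes by over 0.1 on the log2 scale.

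With the replicate number as a block, 38 genes of the chain were higher and 3 lower, with all 35 and both of the first calls among them. Of these, 1 mitochondrial encoded gene was lower. Calls over all genes rose as well, to 3639 higher and 3619 lower, from 3274 and 3245 without the block. Deviations of same-numbered libraries from their group means correlated across genes at 0.0721. With 2 libraries a group, this value cannot show whether same-numbered libraries were prepared together. Some genes that were not called with all 4 libraries changed sign: with library size alone MT-ND1 was at -0.019 and SDHB at -0.021, and with DESeq2 COX6B2 was at 0.018. With 1 library left out, log2 fold changes ranged between -0.023 and 0.111 for MT-ND1, -0.054 and 0.348 for MT-ND4L, -0.012 and 0.159 for MT-ND5, -0.011 and 0.568 for MT-ATP8, -0.037 and 0.124 for SDHB, -0.896 and 0.995 for COX6B2, and -0.122 and 0.065 for COX7A2L. Of these, MT-ATP8 was called higher at its upper value, without shControl replicate 2. DESeq2 called 1 lower where edgeR called 4 among genes of mitochondrial RNA processing, and 2 where edgeR called 4 for coenzyme Q and cytochrome c. The cause of these moves was not tested. With 2 libraries a group, small changes can be missed.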
